A study of Homo sapiens with 6 samples.

Results

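The UGT1A genes UGT1A1, UGT1A3, UGT1A4, UGT1A5, UGT1A6, UGT1A7, UGT1A8, UGT1A9 and UGT1A10 were followed on 6 arrays of MDA-MB-436, an established triple-negative human breast tumour line. These 9 genes encode UDP-glucuronosyltransferases, enzymes of the endoplasmic reticulum that join glucuronic acid to small lipophilic molecules so that they can leave the cell. They were chosen by name and with their values in this comparison already known, so their own differences are described and not tested. All probe sets whose annotation entry holds at least 1 of the 9 genes were taken, which gave 9 of the 54613 probe sets that are not array controls. Of the 9 probe sets, 7 list 5 or more UGT1A genes and are called shared, and 2 list a single gene, UGT1A6 or UGT1A1.

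The study set 3 arrays labelled NF1-C2S transfected against 3 arrays labelled wild type. The transfected cells carry, after stable transfection, an expression plasmid with NF1-C2, which belongs to the nuclear factor I transcription factors, and the wild type cells carry none. The labels also write NF1-C2S and NF-C2 and do not say whether these names mean the same construct. All cells grew in RPMI medium with serum, antibiotics and insulin. Whether a clone or a pool of transfected cells was profiled, the promoter of the plasmid, and cells with an empty plasmid are not described in the labels, and no label states whether replicates were separate cultures. The p-values therefore rest on the spread between these arrays, some of which may be technical.

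The UGT1A locus is built unusually. Each gene has a first exon and a promoter of its own, and all of them are spliced to the same set of downstream exons, so that every UGT1A enzyme has the same C-terminal part, which binds UDP-glucuronic acid, and differs in the N-terminal part, which binds the substrate. UGT1A1 conjugates bilirubin and oestradiol, UGT1A6 simple planar phenols, UGT1A9 bulky phenols and many drugs, and UGT1A3 and UGT1A4 amines and steroids. UGT1A7, UGT1A8 and UGT1A10 are best known from the gut, and most of the others from liver. A probe set in the common exons reads the sum of all transcripts of the locus, and in these bulk samples fewer cells that make a transcript and less of it per cell cannot be told apart.

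Values are log2 expression as the authors deposited them after RMA, which removes background, aligns the distributions of the arrays and gives each probe set 1 value. The median of all values was 4.82, and array medians ran from 4.8 to 4.86. Small signals are squeezed together by RMA, so a fold is written "at least" where the mean of the dimmer group lies under that median. Arrays correlated at 0.992 to 0.997 within the transfected group, at 0.996 within the wild type group and at 0.971 to 0.976 between the groups. The progesterone receptor gene PGR lay under the median in both groups (3.23 and 3.12 in transfected and wild type cells). The receptor genes ESR1 (5.85 and 5.88) and ERBB2 (7.25 and 7.47) lay above it in both. The median is not a limit of detection, and each gene was read at its brightest probe set. That of ESR1 ends in _x_at, a suffix of probes that may also bind unrelated transcripts. These values therefore do not bear on the triple-negative name of the line. Vimentin, VIM, was bright (13.01 and 13.54). The epithelial cadherin CDH1 was under the median (3.44 and 3.42) although the labels call the cells epithelial.

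RNA of the UGT1A locus was lower on the transfected arrays. There 3 of the 7 shared probe sets averaged under the median of all probe sets and the other 4 averaged 4.89 to 5.39, while on the wild type arrays 6 averaged 8.70 to 10.13 and 221304_at averaged 5.41. All 7 shared probe sets were lower on every transfected array than on any wild type array, and 6 of them differed by more than 3 on the log2 scale. As background, 17.8% of all 54613 probe sets had groups that do not overlap with the transfected arrays lower, 11.4% passed the limma test in that direction, and 0.198% had a log2 change under -3. Since the genes were chosen on this contrast, nothing is read from these shares. The array-wise median over the shared probe sets was 5.14, 4.54 and 4.68 in transfected replicates 1 to 3, against 8.90, 8.88 and 9.46 in wild type replicates 1 to 3. That is a log2 change of -4.29, or at least 19.6-fold, between means of 4.79 ± 0.31 and 9.08 ± 0.33 (SD, n = 3 each).

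Of the shared probe sets, 3 list all 9 genes. The first, 215125_s_at, read 4.34, 3.42 and 3.53 in the transfected arrays, against 9.52, 9.64 and 9.91 in the wild type arrays (log2 change -5.93, at least 60.8-fold). Next, 208596_s_at, whose representative transcript is that of UGT1A3, read 5.50, 5.10 and 4.68 in transfected cells, against 10.02, 9.94 and 10.42 in wild type cells (log2 change -5.03, 32.8-fold). The last, 206094_x_at, represented by the UGT1A6 transcript, read 5.77, 5.17 and 5.22 in transfected cells, against 8.94, 8.93 and 9.46 in wild type cells (log2 change -3.73, 13.2-fold). In all 3 the groups stood apart by several log2 units, and transfected replicate 1 was the highest of its group.

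A further 2 probe sets list UGT1A1, UGT1A4, UGT1A6, UGT1A8, UGT1A9 and UGT1A10 and leave out UGT1A3, UGT1A5 and UGT1A7. They gave like changes. The one represented by the UGT1A1 transcript, 207126_x_at, read 5.18, 4.54 and 4.94 in transfected cells, against 8.90, 8.88 and 9.46 in wild type cells (log2 change -4.19, 18.3-fold). The one represented by the UGT1A9 transcript, 204532_x_at, read 5.14, 4.85 and 4.94 in transfected cells, against 8.48, 8.61 and 9.01 in wild type cells (log2 change -3.72, 13.2-fold). The 3 probe sets ending in _x_at, a suffix that marks probes which may also bind unrelated transcripts, had the smallest changes among the 6 that were bright in wild type cells. Without them the median profile read 3.90 ± 0.44 in transfected and 9.27 ± 0.20 in wild type cells, at least 41.3-fold in place of 19.6-fold.

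The remaining 2 shared probe sets list UGT1A1, UGT1A3, UGT1A5, UGT1A8 and UGT1A9, have the same representative transcript, that of UGT1A8, and differed in size. On 221305_s_at the transfected arrays read 3.17, 3.18 and 3.17, against 8.66, 8.83 and 9.05 on the wild type arrays (log2 change -5.67, at least 51.0-fold). The transfected SD was 0.0058, at values under the median of all probe sets. On 221304_at the transfected arrays read 4.49, 3.88 and 3.75, against 5.19, 5.65 and 5.39 on the wild type arrays (log2 change -1.37, at least 2.59-fold), so the groups were 0.70 apart at their nearest points. The exons that these probes match are not stated in the annotation used here.

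The single-gene probe sets stayed dim in both groups. The one listed for UGT1A6, 232654_s_at, read 3.86, 3.62 and 3.55 in transfected cells, against 3.94, 3.87 and 3.71 in wild type cells. The one listed for UGT1A1, 232655_at, read 3.98, 3.57 and 3.55 in transfected cells, against 3.89, 3.39 and 3.49 in wild type cells. The groups overlapped in both, with log2 changes of -0.16 and 0.11. Both have the same representative sequence, and no probe set lists UGT1A3, UGT1A4, UGT1A5, UGT1A7, UGT1A8, UGT1A9 or UGT1A10 alone. The annotation therefore assigns no bright signal to a single gene of the locus, and which of the 9 first exons the wild type transcripts carried cannot be told from these probe sets.

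**Figure D1:**
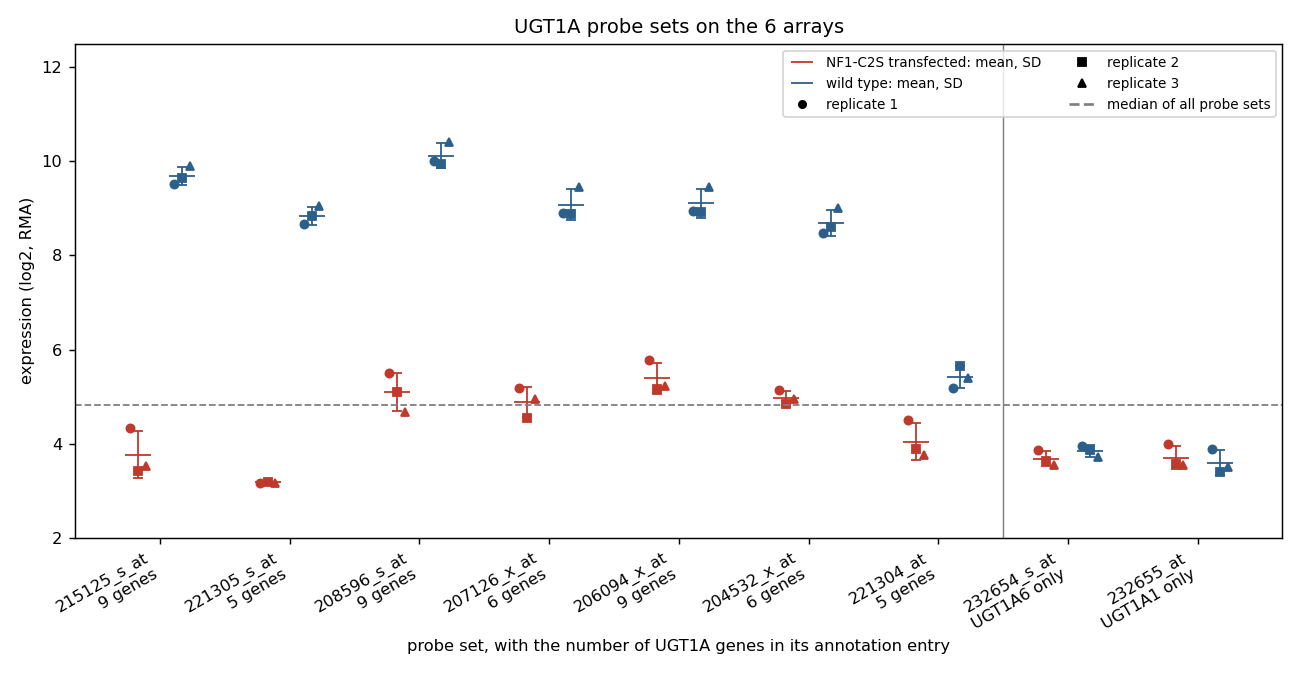
Expression (log2, RMA) of the 9 UGT1A probe sets on the 6 arrays, transfected left of wild type, with each array as a point and the mean and SD of each group (n = 3). Left of the vertical line, 7 shared probe sets are lower on every transfected array than on any wild type array; right of it, the 2 single-gene probe sets overlap under the dashed line, the median of all probe sets, at 4.82.

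Within each group most shared probe sets moved together, though their entries list the same genes in part, so they are not independent readings. Wild type replicate 3 was the highest wild type array in 6 of 7, with a median excess of 0.44 over the mean of the other wild type arrays. The exception was 221304_at. Transfected replicate 1 was the highest transfected array in 6 of 7, with a median excess of 0.58 over the mean of the other transfected arrays. Among all probe sets in the same range of wild type brightness, the excess of wild type replicate 3 had a median of -0.005 and a 95th percentile of 0.29. For transfected replicate 1 these were -0.055 and 0.295. The range was set by wild type means for both groups. The transfected means of the shared probe sets, 3.17 to 5.39, lay under it, so that reference is not matched in transfected level. Of the 9 UGT1A values of wild type replicate 3, 2 carry more than 2 decimals, as do 6354 values of that array in all. Between arrays of the same replicate number, the median profile differed by -3.76, -4.34 and -4.78 for numbers 1, 2 and 3. Each of the 7 shared probe sets was lower in all 3 pairs, which already follows from groups that do not overlap.

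**Figure D2:**
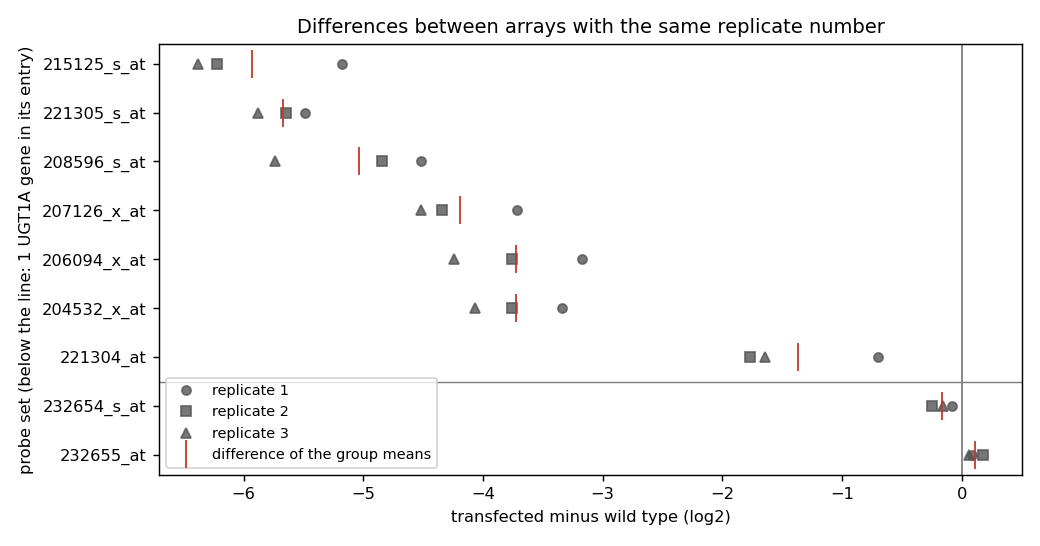
Transfected minus wild type (log2) for each UGT1A probe set and each replicate number, with the difference of the group means as a red bar. The differences span -6.38 to -3.17 for the 6 shared probe sets that were bright in wild type cells and -1.77 to -0.70 for 221304_at, and the 2 single-gene probe sets below the line lie within 0.25 of 0.

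By the smallest root mean square difference between the centred profiles over the 6 arrays, the genes most like the UGT1A median profile were LINC00525 (a difference of 0.286), the heparan sulphatase SULF2 (0.306), the EGF receptor ligand EREG (0.318), PMEPA1 (0.337), which is induced by TGF-beta, and the calcium-binding protein S100P (0.355). Their log2 changes were -4.08, -3.85, -4.02, -3.73 and -4.73. The transfected means of LINC00525, SULF2 and S100P lay under the median of all probe sets, so their changes are lower bounds in size. The likeness rests mostly on the difference between the groups, which chose these genes, and it is a description.

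The starts of the genes are described, and some are shown, because the locus reads as 1 signal while its promoters are separate. RefSeq windows of 300 bases on GRCh38.p14 ran from 250 bases before the start to 50 after it. They were at hand for 8 of the 9 genes, all but UGT1A10, with 2 starts for UGT1A6. On both strands the windows were searched for the nuclear factor I palindrome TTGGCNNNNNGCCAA and its arm TTGGC, which is part of the palindrome. They were also searched for the core GCGTG of the element bound by the aryl hydrocarbon receptor, and the core TGACNNNGC of the antioxidant response element. Capitals mark every match below, and all windows are on the plus strand. UGT1A8 and UGT1A9 are shown as members of the entry of 5 genes, and UGT1A6 for its distinct upstream start. UGT1A1, also in that entry, is shown as the bilirubin enzyme with no match in its window. Sequence beyond the windows was not searched.
UGT1A8, chr2:233617383-233617682: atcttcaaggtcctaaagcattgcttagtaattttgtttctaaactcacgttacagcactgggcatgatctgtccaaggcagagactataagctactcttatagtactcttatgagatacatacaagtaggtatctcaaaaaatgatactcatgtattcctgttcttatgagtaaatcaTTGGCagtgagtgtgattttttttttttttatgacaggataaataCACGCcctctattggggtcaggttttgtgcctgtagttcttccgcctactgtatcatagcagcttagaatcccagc
UGT1A9, chr2:233671648-233671947: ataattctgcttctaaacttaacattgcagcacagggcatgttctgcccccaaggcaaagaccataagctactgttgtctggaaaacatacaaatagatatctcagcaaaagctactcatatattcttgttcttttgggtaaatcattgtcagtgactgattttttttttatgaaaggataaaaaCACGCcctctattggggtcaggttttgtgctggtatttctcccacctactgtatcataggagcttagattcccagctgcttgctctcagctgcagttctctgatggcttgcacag
UGT1A6, chr2:233691452-233691751: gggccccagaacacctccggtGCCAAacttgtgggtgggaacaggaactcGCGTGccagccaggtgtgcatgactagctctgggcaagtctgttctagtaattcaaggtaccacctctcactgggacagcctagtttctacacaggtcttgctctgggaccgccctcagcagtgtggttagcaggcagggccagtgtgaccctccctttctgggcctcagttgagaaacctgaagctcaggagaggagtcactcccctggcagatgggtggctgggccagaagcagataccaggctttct
UGT1A1, chr2:233760020-233760319: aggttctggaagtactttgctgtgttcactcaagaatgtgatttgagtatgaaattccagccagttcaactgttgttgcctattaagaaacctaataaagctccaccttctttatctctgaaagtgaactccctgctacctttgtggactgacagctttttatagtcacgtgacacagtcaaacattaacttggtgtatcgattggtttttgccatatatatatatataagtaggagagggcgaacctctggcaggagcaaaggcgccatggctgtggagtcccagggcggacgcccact

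The palindrome of nuclear factor I, the family of the transfected factor, was in 0 of the 9 UGT1A windows and in 0.0285% of all 35116 RefSeq windows of this length. The arm was in 4 of 9 (UGT1A7, UGT1A8 and both UGT1A6 starts), against 45.6% of all windows. The receptor core GCGTG was in 6 of 9, against 36.5%, and the antioxidant core in 2 of 9 (UGT1A5 and the other UGT1A6 start), against 13.3%. The only receptor core of UGT1A3 lies after the start, at base 46. The windows fall into families by sequence: those of UGT1A7, UGT1A8 and UGT1A9 were identical at 73.0% to 81.0% of 300 bases in pairs, and those of UGT1A3, UGT1A4 and UGT1A5 at 88.3% to 90.0%. Windows of a family share sequence, so their matches are not independent counts and nothing is read from the shares. Matches are a description of letters, and no promoter was measured here.

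The genes beside UGT1A on chromosome 2 were lower too. Order was taken from the RefSeq table of human genes, and each gene was read by its brightest single-gene probe set and tested with limma, adjusted by the Benjamini-Hochberg method over the 19775 genes that have such a probe set, where 31.9% passed (adjusted p under 0.05), 16.9% lower and 15% higher. Of the 10 nearest measured protein-coding genes on each side, 10 of 20 were lower and 0 higher, and the counts at an unadjusted p under 0.05 were also 10 and 0. Their median log2 change was -0.30, against 0.00 over all genes.

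USP40, a ubiquitin protease and the nearest neighbour before the locus, read 7.27, 7.23 and 7.38 in transfected cells, against 9.08, 9.10 and 9.21 in wild type cells. It fell 3.57-fold (log2 change -1.84, SE 0.08, limma adjusted p = 6.08e-06). MROH2A, the nearest after it, was dim in both groups (3.75 and 3.78, adjusted p = 0.874). SH3BP4, which acts in receptor trafficking, read 9.0, 9.06 and 8.98 in transfected cells, against 10.96, 10.94 and 10.83 in wild type cells, a fall of 3.72-fold (limma adjusted p = 4.62e-06). When its probe sets were averaged the log2 change was -1.15. NGEF, a guanine nucleotide exchange factor, fell by 1.65 and COPS8, a COP9 signalosome subunit, by 1.31, and the autophagy gene ATG16L1, the diacylglycerol kinase DGKD, AGAP1, DRC11, GIGYF2 and the centromere chaperone HJURP (chosen after their values were seen) fell by 0.48 to 1.30, with DRC11 under the median in transfected cells and at -0.52 when its probe sets were averaged. In all 10 the groups did not overlap, as in 17.8% of all probe sets in this direction. These 10 were picked as past the test, which favours separate groups, so nothing is read from it. Each fall was smaller than that of the UGT1A median profile, at -4.29, whose genes were chosen on this contrast.

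The lower levels reached well beyond these neighbours. In the next 50 measured genes before the first 10, 25 were lower and 1 higher, and in the 48 genes from there to the end of the chromosome after UGT1A, 27 were lower and 0 higher. In genes 61 to 140 before the locus, 36 were lower and 4 higher, and in the 60 genes before those, 9 were lower and 14 higher. Over all 1059 other measured protein-coding genes of chromosome 2, 234 were lower and 223 higher. Over all genes, 16.9% were lower and 15% higher. Dim genes can hardly be called, so shares were also taken among genes at or above the median of all probe sets in a group. There the lower shares of the blocks, in the order given, were 75.8%, 65.9%, 57.4% and 19.5%. They were 28.6% over chromosome 2 and 24% over all genes. These blocks were chosen after seeing the data.

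**Figure D3:**
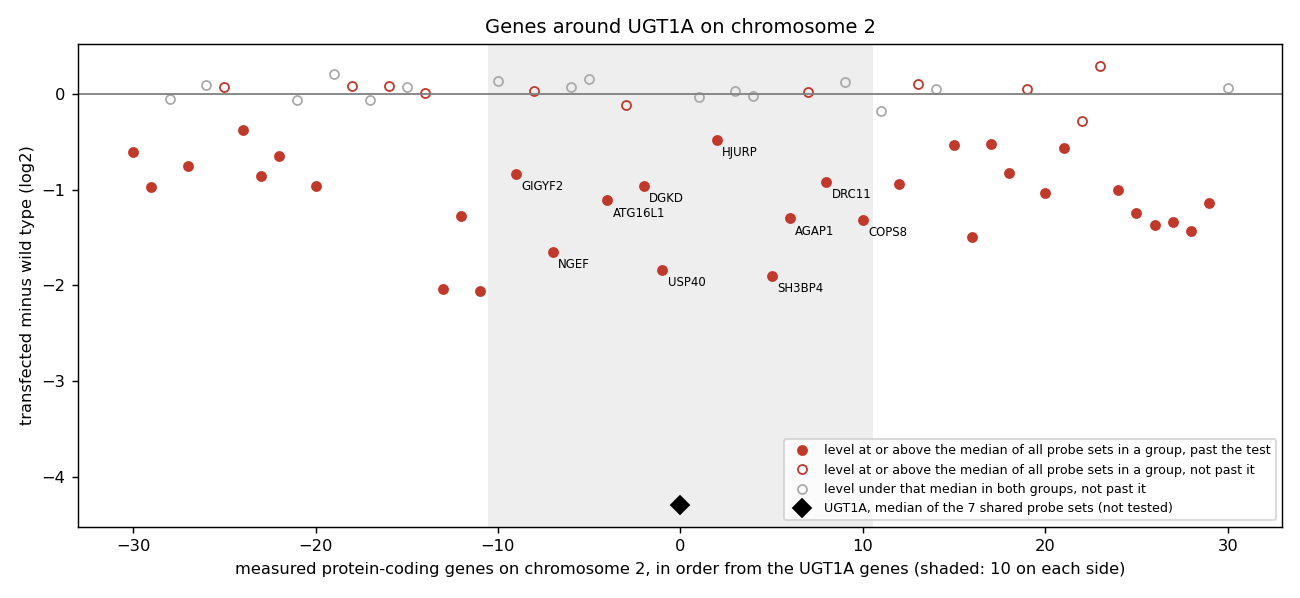
Transfected minus wild type (log2) of measured protein-coding genes on chromosome 2, by order from the UGT1A genes, 30 on each side, filled where limma passed and red where the level reached the median of all probe sets in a group. The called genes among the shaded 20 neighbours lie between -1.90 and -0.48, and the UGT1A median profile, as a diamond, at -4.29.

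Enzymes that feed glucuronidation went both ways. Of 10 measured genes of UDP-glucuronic acid supply and glucuronide hydrolysis, 2 fell, 5 rose and 3 did not pass the limma test, with a median log2 change of 0.27 (70% called, against 31.9% of all genes). All 10 reached the median of all probe sets in a group, as did 13142 of all 19775 genes. The 31.9%, here and below, includes dim genes, which can hardly be called, so it is a low background for bright lists. The count past the test was 4 in place of 7 without wild type replicate 1 or without transfected replicate 3. UGDH, the dehydrogenase that makes UDP-glucuronic acid, read 9.56, 9.73 and 9.66 in transfected cells, against 10.60, 10.67 and 10.57 in wild type cells, a fall by 0.96 (SE 0.07, limma adjusted p = 7.21e-05). UXS1, which turns UDP-glucuronic acid into UDP-xylose, rose by 0.62, and PGM2, a phosphoglucomutase, by 0.39, a call lost without transfected replicate 2 (adjusted p = 0.0622). Hexokinase HK2 rose by 0.50 on its brightest probe set (adjusted p = 0.00283) but read -0.39 when its probe sets were averaged (adjusted p = 0.00755). GUSB, the lysosomal glucuronidase that removes glucuronic acid, read 0.27 (adjusted p = 0.0588).

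The other UDP-glycosyltransferases had little signal. Of 7 measured members of the UGT2, UGT3 and UGT8 families, 6 lay under the median of all probe sets in both groups and did not pass (14.3% called, against 31.9% of all genes). The seventh, UGT8, which makes galactosylceramide, averaged 6.03 ± 0.21 in transfected and 5.44 ± 0.36 in wild type cells (log2 change 0.60, limma adjusted p = 0.0473), with groups that overlap, and its call was lost without wild type replicate 1 or 3 or transfected replicate 2 or 3 and when its probe sets were averaged.

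The list of bilirubin handling has 9 measured genes, of which 4 fell, 1 rose and 4 missed the threshold (median -0.42, 55.6% called, against 31.9% of all genes). ABCC2, the canalicular pump that exports bilirubin glucuronides, read 5.38, 4.32 and 3.57 in transfected cells, against 7.85, 8.03 and 8.40 in wild type cells, so that the groups stood apart although the transfected arrays were spread. It fell by 3.67 (SE 0.41, limma adjusted p = 0.000407), at least 12.7-fold. SLCO1B3, a hepatic uptake carrier of bilirubin and its conjugates, averaged 3.55 ± 0.08 in transfected cells, against 6.15 ± 0.52 in wild type cells, at least 6.08-fold lower. The biliverdin reductases BLVRB and BLVRA, which make bilirubin, fell by 0.80 and 0.42, while HMOX1, the inducible haem oxygenase that makes biliverdin, rose by 0.69.

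Among 8 measured efflux transporters of conjugates, 3 fell, 1 rose and 4 did not pass (50% called, against 31.9% of all genes). ABCG2 fell by 0.77, a call lost without wild type replicate 2 (adjusted p = 0.0729) or 3 (adjusted p = 0.0782), and ABCC1 by 0.58, while ABCC4 rose by 0.84, or by 0.44 when its probe sets were averaged. ABCC3, the basolateral pump of glucuronides, read -0.44 (limma adjusted p = 0.184, and 0.0164 with the replicate number as a block).

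Of 12 measured receptors and factors known to act on UGT1A transcription, 3 fell, 1 rose and 8 did not pass, and the 33.3% called were near the 31.9% of all genes. AHR, the receptor for dioxin-like ligands, read 6.80, 6.64 and 6.86 in transfected cells, against 8.20, 8.26 and 8.40 in wild type cells, and fell by 1.52 (SE 0.09, limma adjusted p = 2.6e-05). The glucocorticoid receptor NR3C1 fell by 0.40 and the retinoid receptor RXRA by 0.38, a call of RXRA that was lost when any array other than wild type replicate 2 was left out, and PPARA rose by 0.70, or by 0.29 when its probe sets were averaged. NFE2L2, which encodes NRF2, was bright and read 0.02 (adjusted p = 0.909). NR1I3, the receptor CAR, lay under the median in both groups (3.99 and 3.97). HNF4A and the pregnane X receptor NR1I2 are not analysed here, since no probe set names them alone.

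Of 7 aryl hydrocarbon receptor targets, 1 fell, 1 rose and 5 did not pass (28.6% called, against 31.9% of all genes). The oestrogen hydroxylase CYP1B1 fell by 1.91, the receptor repressor AHRR rose by 1.12, and CYP1A1 read 0.06 (limma adjusted p = 0.882). Of 18 NRF2 targets, 14 fell, 2 rose and 2 did not pass, with a median of -0.60, against 0.00 over all genes (88.9% called, against 31.9%). Of the 18, 17 reached the median of all probe sets in a group, a larger share than among all genes. The aldo-keto reductases AKR1C3, AKR1C2 and AKR1C1 reduce ketosteroids, and their probes may bind more than 1 of them because their sequences are close. AKR1C3 averaged 3.78 ± 0.03 in transfected and 10.15 ± 0.30 in wild type cells, at least 82.7-fold lower. AKR1C2 fell by 2.71 and AKR1C1 by 2.42, with log2 changes of -1.76 and -1.15 when their probe sets were averaged, and the cystine carrier SLC7A11 fell by 1.10. NQO1, a quinone reductase and target of both factors, read -0.28 (limma adjusted p = 0.081, and 0.0346 with the replicate block), and HMOX1 rose.

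Other enzymes of drug and steroid metabolism went both ways. Of 26 phase I genes, 6 fell, 1 rose and 19 did not pass (26.9% called, under the 31.9% of all genes), and 11 lay under the median of all probe sets in both groups. Without transfected replicate 2 the count past the test was 4 in place of 7. CYP4F11 passed although it lay under the median in both groups (3.13 and 4.52 in transfected and wild type cells), so no size is given. The arachidonic acid epoxygenase CYP2J2 was at least 2.12-fold lower, with a wild type mean of 5.68 ± 0.19, and the vitamin D hydroxylase CYP2R1 read -0.63 (adjusted p = 0.0119), or -0.30 when its probe sets were averaged (adjusted p = 0.0755). Of 30 other phase II genes, 4 fell, 5 rose and 21 did not pass (30% called, against 31.9% of all genes). The phenol sulphotransferase SULT1A1 fell by 1.59, while the microsomal glutathione transferase MGST2 rose by 1.70, the nicotinamide methyltransferase NNMT by 1.33 (0.84 when its probe sets were averaged) and the arylamine acetyltransferase NAT1 by 1.09. Of 23 genes of steroid synthesis and conversion, 5 fell, 8 rose and 10 did not pass (56.5% called, against 31.9% of all genes), led by the AKR1C genes downward and upward by HSD11B1, which regenerates cortisol (log2 change 1.74).

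**Figure D4:**
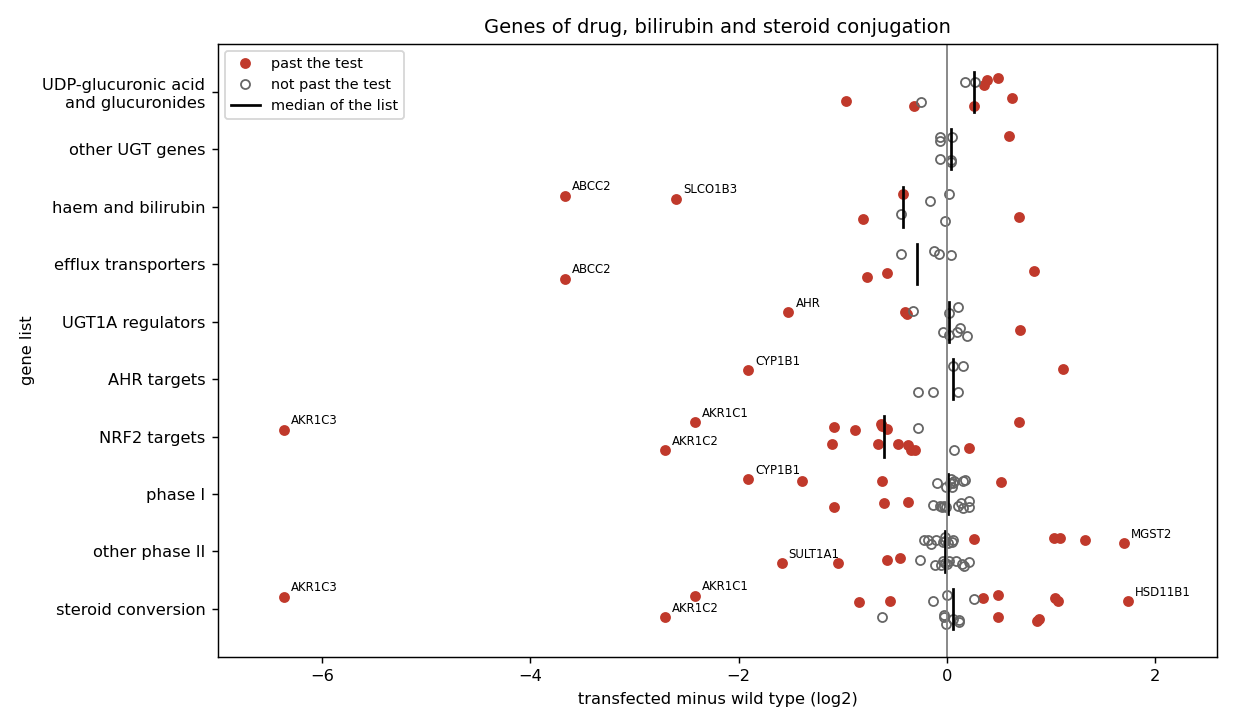
Transfected minus wild type (log2) of every measured gene in 10 lists, filled where limma passed (adjusted p under 0.05), with the median of each list as a bar. NRF2 targets lie mostly left of 0, with a median of -0.60, and ABCC2 and SLCO1B3 stand at -3.67 and -2.61.

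Markers of liver and gut, tissues rich in UGT1A, were tested as well. Of 11 hepatocyte markers and 10 intestinal markers, 0 passed the limma test, against 31.9% of all genes. At an unadjusted p under 0.05 the count was 0 for both lists. Of the hepatocyte markers 8, among them ALB, APOB and FGB, lay under the median in both groups, and the summed linear signal of the 11 ran from 234 to 244 in transfected and from 227 to 249 in wild type arrays. For the 10 intestinal markers it ran from 246 to 279 in transfected and from 241 to 286 in wild type arrays. Of these, 6, among them FABP1, CDH17 and KRT20, lay under the median in both groups. Above it in both groups, in transfected and wild type cells, were the hepatocyte markers TTR (5.76 and 5.48) and SERPINA1 (5.19 and 5.42). So were the intestinal markers CDX1 (5.99 and 6.08), MUC2 (5.26 and 5.29) and GUCA2A (5.17 and 5.22).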

How the data were processed

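The deposited table holds a log2 value per array for 54675 probe sets, made by the authors with RMA per the submitters' processing notes, in a version that the labels do not state. The 62 control probe sets were left out. Probe sets were named through the platform annotation, with 41091 naming 1 gene, 1801 several and 11721 none, and symbols were updated by gene identifier. Deposited values were fitted with limma 3.58.1 in R 4.3.3 (2 groups of 3 arrays, no covariate, two-sided) over all probe sets and over 19775 genes, each at its brightest single-gene probe set, with Benjamini-Hochberg adjusted p under 0.05 as the threshold. The fit was tested on simulated data with independent arrays and far fewer changed genes than were called here. That check does not bear on replicates that may be technical. The UGT1A members and the gene lists were chosen with earlier results of these data known. Arrays give no read depth, and their number limits the precision.

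Genes were named by a rule: at most 4 members per list, those past the threshold that changed most, a set of genes of known role, the nearest neighbours and the 5 genes most alike. The deviations of same-numbered arrays from their group means correlated at 0.398, 0.238 and 0.140, all above 0.1, although transfected replicate 3 correlated as well with wild type replicate 2 (0.142), so the numbers were taken as pairing the arrays in an alternative fit. Further alternatives were other normalizations, a different variance prior, a filter on dim probe sets, the mean of the probe sets of a gene, and leaving out each array. Promoter windows and gene order come from RefSeq tables of GRCh38.p14, used for sequence and order only.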

Additional observations from a re-analysis of the deposited data

How the results depend on the processing

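The log2 change of the UGT1A median profile was -4.29, lay between -4.47 and -4.10 when any 1 array was left out, and was -4.29, -4.28 or -4.30 under quantile, median-centred or cyclic loess normalization. It read -5.37 without probe sets ending in _x_at. The change of each of the 9 probe sets moved by less than the root mean square of its group SDs under the normalizations. With 3 arrays a group, leaving out 1 array cannot move a change by that much, so nothing is read from that comparison. With the replicate block, 6665 genes passed in place of 6300. Among the 51 genes refitted, the block ended no call and brought ABCC3 and NQO1, as given above, and GUSB (adjusted p = 0.0276) past the threshold. GUSB also passed with quantile normalization, the trended robust prior, the dim filter, the mean of its probe sets and without wild type replicate 3 (adjusted p = 0.0115 to 0.0463). NQO1 also passed with the trended robust prior (0.0142). Leaving out 1 array gave 5264 to 6057 genes and 9732 to 12358 probe sets, 4 to 7 of the glucuronic acid list, 4 to 8 of phase I, 0 to 1 of the other UGT genes, 12 to 15 of the NRF2 targets and 10 of the 20 neighbours each time. For the mean of the probe sets of a gene, 0 of the other UGT genes passed, HK2 turned to -0.39, and AKR1C1, AKR1C2, ABCC4, CYP2R1, DRC11, NNMT, PPARA and SH3BP4 moved by over 1.5 times to the values given above. The causes were not tested. Values near the dim end of the scale limit the size of a fall that can be read.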

Other observations

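Of 9 mammary markers, 2 fell by limma's adjusted p, KRT18 by 0.93 and VIM by 0.53, and 7 did not pass. That is 22.2% called, under the 31.9% of all genes. Of 6 blood cell markers, 1 rose (16.7% called, against 31.9% of all genes). It was CD14, which rose by 0.83 to 6.59 in transfected cells, against 5.77 in wild type cells. PTPRC lay under the median of all probe sets in both groups (3.86 and 3.65).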
